A study of Rattus norvegicus with 8 samples.

Results

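The genes described here were 9 CC chemokines and CC chemokine receptors, Ccl2, Ccl3, Ccl4, Ccl5, Ccl7, Ccl19, Ccl21, Ccr1 and Ccr2, matched by gene name. The rule itself used no measured value, but the genes were proposed with earlier results of these data known. Of these 9 genes, 8 were matched among the 32623 rat Ensembl genes of the count data by gene name, and all 8 passed the filter on low counts. Ccr2 was not analysed here. Bulk RNA sequencing was performed on the outflow vein of an arteriovenous fistula (AVF), made in Sprague Dawley rats by joining the epigastric vein to the side of the femoral artery. In every animal, controls included, a polymer nanofiber scaffold was wrapped around the vein at surgery, and the tissue was collected at day 21. The BAPN group carried scaffolds loaded with β-aminopropionitrile (BAPN), an inhibitor of lysyl oxidases, the enzymes that link collagen and elastin fibers (BAPN 1 to 3 female, BAPN 4 male). The Vehicle group carried the same kind of scaffold without drug (Vehicle 1 and 2 female, Vehicle 3 and 4 male). Each of the 8 libraries was from 1 animal, and veins without a scaffold were not analysed here, so that both groups include the response to surgery and to the polymer.

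CC chemokines are small secreted proteins with adjacent cysteines that guide leukocytes through G protein-coupled receptors. Ccl2 and Ccl7 attract monocytes, mainly through Ccr2. Ccl3, Ccl4 and Ccl5 are inflammatory ligands, of which Ccl3 and Ccl5 bind Ccr1, and they attract monocytes, macrophages and T cells. Ccl19 and Ccl21 are ligands of Ccr7 that guide dendritic cells and naive T cells towards lymphoid tissue, and Ccl21 is made by lymphatic endothelium. In veins exposed to arterial flow, monocytes and macrophages take part in wall remodeling.

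The promoters of Ccl7, the member whose groups were completely separated, and of Ccl21, the member with the smallest fold change, are shown to give the sequence before each start site. The sequences cover the 250 bases before the gene start on the strand of the gene, from RefSeq (assembly GRCr8), and a sequence was given for 4 of the 8 measured genes (Ccl7, Ccl19, Ccl21 and Ccr1). Capitals mark, in order, an AP-1 match (TGANTCA), a match to the κB consensus (GGGRNNYYCC) and a TATA box (TATAAA), none of which overlap. The κB match is on the strand opposite to the one printed (N is any base, R is A or G, Y is C or T).
Ccl7: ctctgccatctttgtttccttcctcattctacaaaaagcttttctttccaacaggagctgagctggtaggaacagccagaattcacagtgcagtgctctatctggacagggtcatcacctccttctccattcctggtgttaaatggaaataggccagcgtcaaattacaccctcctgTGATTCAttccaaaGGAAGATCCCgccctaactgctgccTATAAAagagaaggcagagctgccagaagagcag
Ccl21: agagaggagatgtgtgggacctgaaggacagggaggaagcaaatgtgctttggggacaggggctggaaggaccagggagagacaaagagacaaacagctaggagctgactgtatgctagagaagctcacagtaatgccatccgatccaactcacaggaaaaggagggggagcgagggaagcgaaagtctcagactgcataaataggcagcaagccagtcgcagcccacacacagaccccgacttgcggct
The Ccl7 window (chr10:67513845-67514094, plus strand) held the AP-1 match beginning 73 bases, the κB match 59 bases and the TATA box 34 bases before the start. The Ccl21 window (chr5:61777516-61777765, minus strand) held none of the 5 motifs searched on both strands, which also included TTCNNNGAA for STAT factors and GAAANNGAA for interferon regulatory factors. The Ccl19 window held 1 GAAANNGAA match, 51 bases before the start, and the Ccr1 window held no match. Among 33469 promoter windows of the same length, 12.9% held TATAAA, 6.34% TGANTCA, 6.33% the κB consensus, 7.67% TTCNNNGAA and 8.12% GAAANNGAA. These matches describe the letters of the windows and were not tested as binding sites.

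Total counts per library were 45039451 to 52241007 in the BAPN group and 19548203 to 22442050 in the Vehicle group, so sequencing depth separated the groups completely, and any difference in how the libraries of each group were handled cannot be told apart from BAPN itself. Levels are given as normalized read counts on a common scale (CPM, set by TMM-adjusted library sizes of the tested genes) and serve only to compare 1 gene between libraries, since they are not divided by gene length. The quasi-likelihood F test of edgeR compared the groups, its p-values were adjusted by Benjamini-Hochberg across the 11682 genes tested (FDR), and log2 fold changes are of BAPN over Vehicle with the standard error (SE) from limma-voom. Of all tested genes, 16.8% passed an FDR of 0.05, 7.50% higher and 9.25% lower in the BAPN group. DESeq2 called 27.4% on the same genes. For 24.7% of tested genes the 4 BAPN libraries did not overlap the 4 Vehicle libraries. The summed level of the 14 tested monocyte and macrophage markers was 29820 to 42840 CPM in BAPN and 6861 to 24280 CPM in Vehicle (two-sided exact permutation test, p = 0.0286, the smallest that 4 against 4 allows), while it was 4434 to 5710 and 3000 to 4798 CPM with the lysozyme gene Lyz2 left out (p = 0.0571, same test). Smooth muscle markers were present in every library, summing to 1630 to 4153 CPM in BAPN and 3110 to 5852 CPM in Vehicle (exact permutation test, p = 0.0571). In bulk tissue, fewer cells of a type and less RNA per cell cannot be told apart.

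All 8 measured CC genes had a log2 fold change above 0, from 0.08 for Ccl21 to 0.89 for Ccl7, and 1 of the 8, Ccl7, passed the test. The direction of Ccl21 turned with sex as a covariate, among females alone and without Vehicle 2, 3 or 4, and that of Ccr1 among females alone and without BAPN 4. Their median log2 fold change was 0.55, and it was 0.02 over all tested genes. Ccl7 was likewise the only one of the 8 called by DESeq2 and the only one whose groups did not overlap. With 1 of 8 called by edgeR, the share was near the 16.8% of all genes. The 1 of 8 called by DESeq2 and the 1 of 8 without overlap were below the 27.4% and 24.7% of all genes. The common direction was not tested as a set. For the other 7 genes the 95% interval of the log2 fold change included 0. The plot of normalized levels by library shows each animal.

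**Figure D1:**
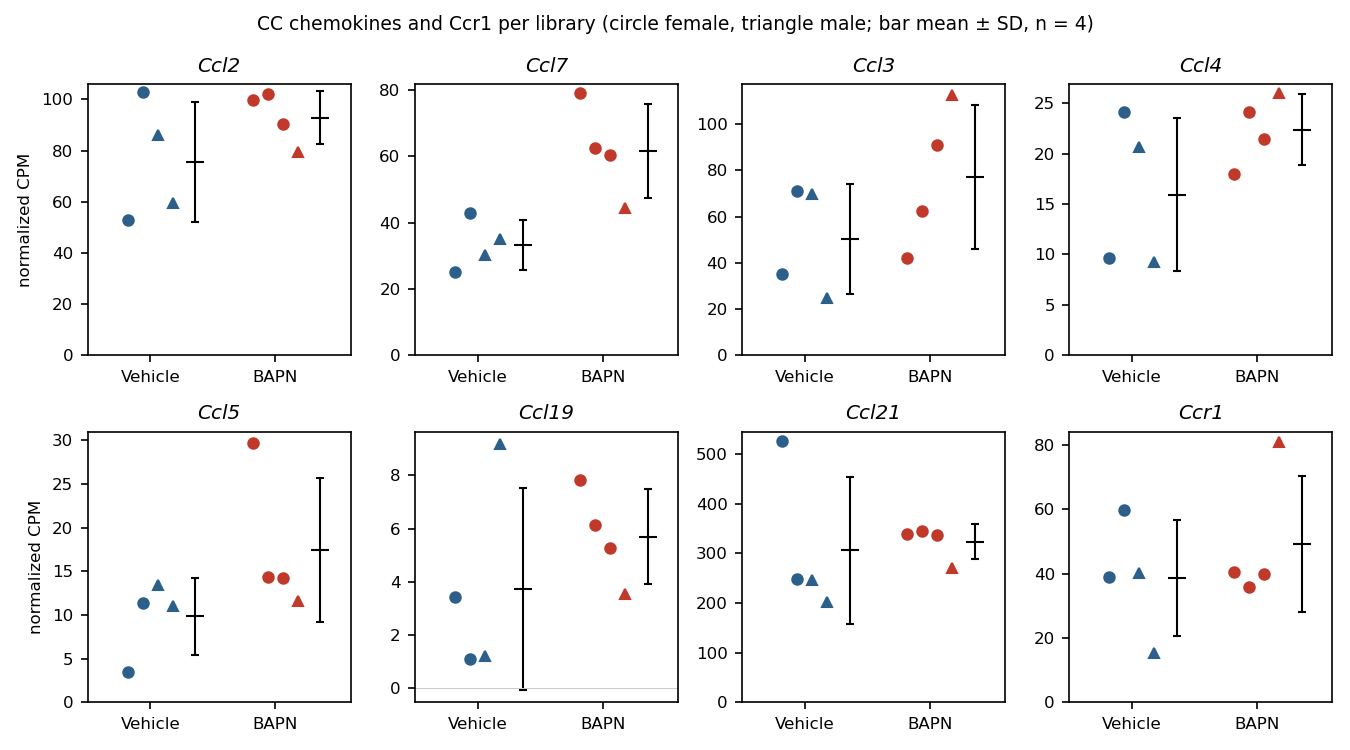
Normalized CPM (vertical axes, from 0 for all genes except Ccl19, whose error bar reaches below 0) of the 8 measured CC genes in each library of the Vehicle (blue) and BAPN (red) groups, with circles for females, triangles for males and black bars for the mean ± SD (n = 4). The Ccl7 panel alone shows no overlap, with 44.42 CPM in the lowest BAPN library and 43.05 CPM in the highest Vehicle library.

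Ccl7 (ENSRNOG00000000239), a monocyte chemoattractant, rose in BAPN-treated veins. Its level was 79.05, 62.66, 60.41 and 44.42 CPM in BAPN 1 to 4 and 25.19, 43.05, 30.22 and 34.97 CPM in Vehicle 1 to 4. Every BAPN animal was above every Vehicle animal, although the male BAPN 4 was only slightly above Vehicle 2. The mean was 61.6 ± 14.2 CPM in BAPN and 33.4 ± 7.60 CPM in Vehicle (SD, n = 4), a ratio of 1.85. The log2 fold change was 0.89 (SE 0.21, 95% interval 0.41 to 1.36, edgeR FDR 0.0246), and DESeq2 gave an FDR of 0.00154. The exact permutation test gave p = 0.0286. The call was lost in 5 of the 8 fits with 1 animal left out. Leaving out BAPN 1, BAPN 2, BAPN 3, Vehicle 1 or Vehicle 3 gave edgeR FDRs of 0.0509, 0.0502, 0.0577, 0.0668 and 0.0561, and leaving out BAPN 4, Vehicle 2 or Vehicle 4 gave 0.0291, 0.0166 and 0.0463. In these 8 fits it stayed between 0.74 and 1.03. With sex as a covariate it was 0.79 (edgeR FDR 0.0559), among females alone 0.98 (edgeR FDR 0.102), and with all libraries thinned to the smallest total 0.89 (edgeR FDR 0.0238). The summed macrophage markers were also higher in every BAPN library than in any Vehicle library, but not with Lyz2 left out (4434 to 5710 and 3000 to 4798 CPM, exact permutation test, p = 0.0571), and their part in the Ccl7 difference was not tested.

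Ccl2 (ENSRNOG00000007159), the other monocyte chemoattractant of the group, did not pass the test. It was at 99.64, 102.2, 90.48 and 79.29 CPM in BAPN 1 to 4 and at 52.81, 103.1, 86.2 and 59.38 CPM in Vehicle 1 to 4. The BAPN animals lay close together, while Vehicle 2 and 3 reached the BAPN range and Vehicle 1 and 4 lay below it. Group means of 92.9 ± 10.4 and 75.4 ± 23.5 CPM (SD, n = 4) gave a log2 fold change of 0.30 (SE 0.21, 95% interval -0.17 to 0.78, edgeR FDR 0.316), which moved to 0.16 without Vehicle 1 and to 0.49 without Vehicle 2 (edgeR FDR 0.0871). The coefficient of variation was 11.2% in BAPN and 31.1% in Vehicle. The count of Ccl7 relative to Ccl2 within the same library, 1 of 3 pairs taken up after the values were seen, was 0.56 to 0.793 in BAPN and 0.351 to 0.589 in Vehicle, overlapping through Vehicle 4 (exact permutation test, p = 0.0571, 0.171 after Benjamini-Hochberg adjustment over the 3 pairs).

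Ccl3 and Ccl4, the macrophage inflammatory proteins, had a similar order of libraries. Ccl3 (ENSRNOG00000011205) was at 42, 62.56, 90.94 and 112.8 CPM in BAPN 1 to 4 and at 35.16, 70.97, 69.78 and 24.56 CPM in Vehicle 1 to 4. Ccl4 (ENSRNOG00000011406) was at 17.94, 24.18, 21.45 and 25.99 CPM in BAPN 1 to 4 and at 9.691, 24.17, 20.71 and 9.22 CPM in Vehicle 1 to 4. For both genes BAPN 4 was the highest library, Vehicle 4 and Vehicle 1 were the lowest, and Vehicle 2 and 3 lay inside the BAPN range. Ccl3 had a log2 fold change of 0.62 (SE 0.40, 95% interval -0.28 to 1.52, edgeR FDR 0.277), and 0.37 without BAPN 4 or 0.39 without Vehicle 4. That of Ccl4 was 0.49 (SE 0.29, 95% interval -0.17 to 1.14, edgeR FDR 0.289), and 0.30 without Vehicle 4, 0.31 without Vehicle 1 or 0.76 without Vehicle 2. Vehicle 4 also had the lowest summed macrophage markers, 6861 CPM with Lyz2 included, and the part of this in either difference was not tested. The ratio of Ccl3 to Ccl4 counts within a library, also chosen after the values were seen, was 2.34 to 4.34 in BAPN and 2.66 to 3.63 in Vehicle, with BAPN 3 and 4 above all others (an exact permutation test did not reach 0.05). In the females, log2 fold changes were 0.30 for Ccl3 and 0.32 for Ccl4.

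Ccl5 (ENSRNOG00000010906), a chemokine made by T cells and natural killer (NK) cells among others, had the fold change closest to that of Ccl7 and a wider spread. Its level was 29.66, 14.38, 14.18 and 11.61 CPM in BAPN 1 to 4 and 3.511, 11.37, 13.47 and 10.99 CPM in Vehicle 1 to 4. BAPN 1 stood above and Vehicle 1 below the other 6 libraries, which lay between 10.99 and 14.38 CPM. Its log2 fold change of 0.83 did not pass the test (SE 0.46, 95% interval -0.21 to 1.87, edgeR FDR 0.186), and the two-sided exact permutation test gave p = 0.0571. It was 0.44 without BAPN 1, 0.55 without Vehicle 1 and 1.39 among females alone. The summed NK and cytotoxic markers had the same extremes, with 56.11 CPM in BAPN 1 and 7.725 CPM in Vehicle 1, and were 31.57 to 56.11 CPM in BAPN and 7.725 to 40.41 CPM in Vehicle overall (exact permutation test, p = 0.0857). Of the 8 listed NK and cytotoxic markers 5 were tested and none was called (edgeR, 1 at an unadjusted p under 0.05, with DESeq2 calling 1), among them Prf1 (log2 fold change 0.67, edgeR FDR 0.234), Nkg7 (0.76, edgeR FDR 0.294) and Klrd1 (1.09, edgeR FDR 0.201). Gzmk, named after its values were seen, was higher in every BAPN library than in any Vehicle library (1.21, edgeR FDR 0.0568, DESeq2 FDR 0.015). Gzmb, which encodes granzyme B, had no counts in any library. Since the counter and the annotation are not given, absent expression and uncounted reads cannot be told apart for Gzmb. The part of the NK and cytotoxic markers in the Ccl5 values was not tested.

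Ccl19 and Ccl21, the homeostatic ligands of Ccr7, did not pass the test and differed from each other in the order of libraries. Ccl19 (ENSRNOG00000015668) was at 7.84, 6.134, 5.259 and 3.548 CPM in BAPN 1 to 4 and at 3.418, 1.087, 1.221 and 9.172 CPM in Vehicle 1 to 4. It had the lowest counts of the 8 genes, 170 to 378 in BAPN and 22 to 192 in Vehicle, and Vehicle 4 alone exceeded all BAPN animals. Ccl19 had a log2 fold change of 0.61 (SE 0.58, 95% interval -0.68 to 1.91, edgeR FDR 0.501). It was 1.58 without Vehicle 4 (edgeR FDR 0.0667), 0.31 without Vehicle 2, 0.32 without Vehicle 3 and 1.5 among females alone (edgeR FDR 0.146), and the coefficient of variation in Vehicle, 102%, was the largest of the 8 genes. Ccl21 (ENSRNOG00000034290) was at 339.4, 345.4, 337.3 and 271.2 CPM in BAPN 1 to 4 and at 526.5, 248.6, 246.2 and 203 CPM in Vehicle 1 to 4. Vehicle 1 was above every other library and the remaining 3 Vehicle animals were below every BAPN animal. Over all 8 animals the log2 fold change was 0.08 (SE 0.29, 95% interval -0.57 to 0.73, edgeR FDR 0.859), and it was 0.48 without Vehicle 1 (edgeR FDR 0.0968), -0.01 without Vehicle 2 or 3, and -0.07 without Vehicle 4. The ratio of Ccl19 to Ccl21 counts within a library, the last of the 3 pairs, was 0.0131 to 0.0231 in BAPN and 0.00437 to 0.0452 in Vehicle (exact permutation test, p = 0.257, adjusted 0.386). Rodent genomes carry near-identical copies of Ccl21, and how reads shared between such copies were counted is not given in the sources used here.

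Vehicle 1 also had the highest summed lymphatic endothelial markers, 427.9 CPM, while the other 7 libraries lay between 222.2 and 294.1 CPM. All 6 lymphatic markers were tested, and 1, Prox1, the transcription factor that sets lymphatic identity, fell by 2.05 on the log2 scale in BAPN-treated veins (SE 0.37, edgeR FDR 0.0119). Among the 9 other settings Prox1 was called in 8 (FDR up to 0.0638). Lyve1 (log2 fold change 0.14, edgeR FDR 0.671), Pdpn (-0.10, edgeR FDR 0.666) and Mmrn1 (-0.55, edgeR FDR 0.242) did not pass the test. The summed lymphatic markers were 222.2 to 294.1 CPM in BAPN and 262 to 427.9 CPM in Vehicle (exact permutation test, p = 0.257). Their part in the Ccl21 values was not tested.

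Ccr1 (ENSRNOG00000006715), a receptor for Ccl3, Ccl5 and Ccl7 on monocytes and neutrophils, did not pass the test. It was at 40.36, 35.74, 40.02 and 80.8 CPM in BAPN 1 to 4 and at 39.09, 59.75, 40.28 and 15.48 CPM in Vehicle 1 to 4. BAPN 4 was the highest and Vehicle 4 the lowest library, both of them males, and the 3 BAPN females lay within the range of the Vehicle group. Its log2 fold change was 0.35 (SE 0.39, 95% interval -0.53 to 1.23, edgeR FDR 0.54). It was -0.01 without BAPN 4, 0.09 without Vehicle 4, 0.64 without Vehicle 2 and -0.35 among females alone (edgeR FDR 0.308). The interaction of sex and treatment gave edgeR FDRs of 0.288 for Ccr1 and 0.553 to 0.914 for the 7 ligands, and in this term the BAPN males are represented by 1 animal.

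Seen by library, BAPN 4 had the highest level of 3 of the 8 genes and Vehicle 4 the lowest level of 4. BAPN 1 was highest in 2, and Vehicle 1 was lowest in 3 and highest in 1. The remaining extremes were the highest Ccl2 and the lowest Ccl19, both in Vehicle 2, and the highest Ccl19, in Vehicle 4. No BAPN library had the lowest level of any of the 8 genes. The map of centred log2 levels shows 3 patterns: Ccl3, Ccl4 and Ccr1 were low in Vehicle 4 and high in BAPN 4, Ccl7 and Ccl5 were low in Vehicle 1 and high in BAPN 1, and Ccl19 was high in Vehicle 4. Over the 8 libraries, Pearson's r of log2 CPM was 0.90 between Ccl3 and Ccl4, 0.86 between Ccl2 and Ccl4, 0.81 between Ccl3 and Ccr1, 0.81 between Ccl5 and Ccl7, 0.76 between Ccl2 and Ccl5, 0.75 between Ccl2 and Ccl7, and 0.15 between Ccl19 and Ccl21. These are descriptions over both groups together, which differ in treatment and in depth.

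**Figure D2:**
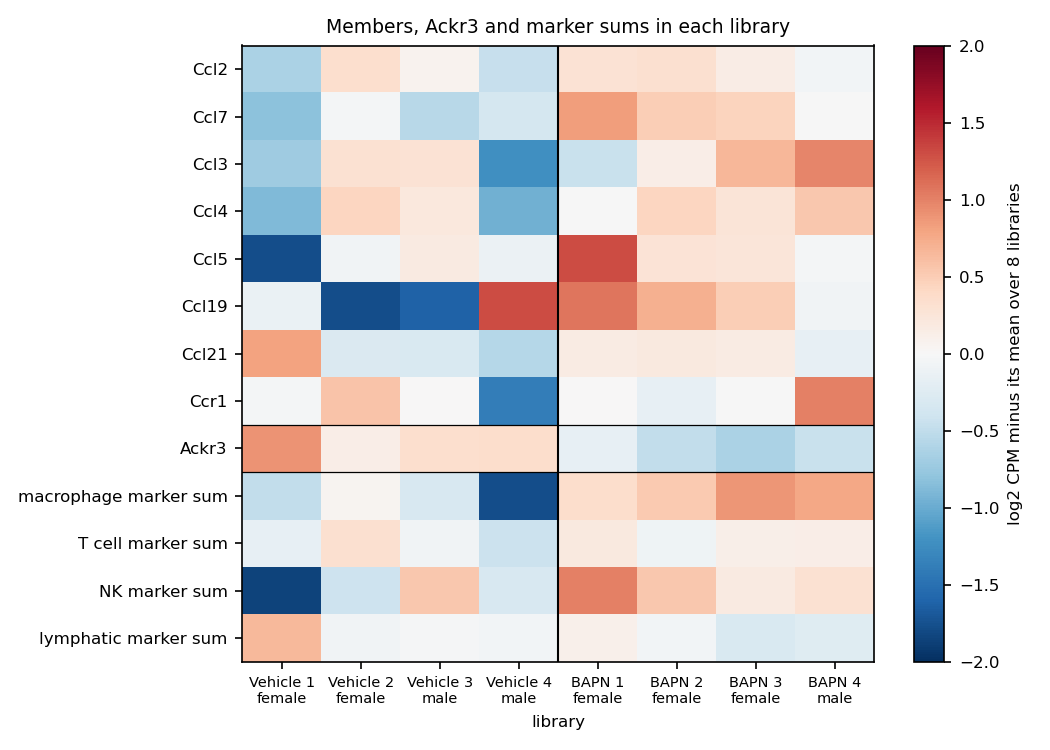
Log2 CPM minus its mean over the 8 libraries (color, from -2 to 2) for the 8 measured CC genes, Ackr3 and the summed macrophage, T cell, NK and lymphatic endothelial markers (rows), in the 4 Vehicle and 4 BAPN libraries (columns). Ccl5 and the NK sum were both lowest in Vehicle 1 (3.511 and 7.725 CPM) and highest in BAPN 1 (29.66 and 56.11 CPM). The T cell sum mostly follows Cd4.

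For each measured gene, the genes with the most similar profile over the 8 libraries were taken by Pearson's r of log2 CPM among all tested genes with a symbol. For Ccl7 these were Irf1, an interferon-induced transcription factor (r = 0.968, Spearman's rho = 1), and Fbxl5 (r = 0.965). Irf1 rose by 0.57 on the log2 scale (edgeR FDR 0.03), a call kept in 2 of 8 fits with 1 animal left out (FDR 0.026 to 0.0666) and lost with sex as a covariate (0.068). As Irf1 was chosen for its likeness to Ccl7, its rise is not a separate result. For Ccl5 they were the NK receptor gene Klrb1b (r = 0.976, rho = 0.905) and the granzyme gene Gzmm (r = 0.962, rho = 0.881), neither of which passed the test (edgeR FDR 0.221 and 0.12). For Ccl2 they were Nudt13 (r = 0.969) and Med18 (r = 0.968), for Ccl3 Arl8a (r = 0.978) and Otulin (r = 0.977), and for Ccl4 Armc3 (r = 0.968) and Nxt2 (r = 0.967). For Ccl19 they were Acp6 (r = 0.966) and Rbmxl1b (r = 0.961), for Ccl21 Tut1 (r = 0.926) and Dhrs7 (r = 0.907), and for Ccr1 Tmem72 (r = 0.987) and Atp1b1 (r = 0.986). With 8 libraries and 11682 genes to choose from, values of this size are a description of the ranking.

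Of 13 other CC ligands, 7 were tested, 5 with a log2 fold change above and 2 below 0, and none was called (edgeR, 2 at an unadjusted p under 0.05, with DESeq2 calling 1). The largest were Ccl17 (1.53, edgeR FDR 0.169) and Ccl12 (1.14, edgeR FDR 0.117), both named after their values were seen. Ccl17 was at 0.37 without BAPN 3. Ccl12 was at 0.80 with sex as a covariate (edgeR FDR 0.144) and at 1.69 without Vehicle 2, where it was called (edgeR FDR 0.0272). Ccl9 was at 349 ± 178 CPM in BAPN and 277.1 ± 154.9 CPM in Vehicle (log2 fold change 0.33, edgeR FDR 0.649, and 0.05 without Vehicle 4, 0.07 without BAPN 4 or 0.71 without Vehicle 2), and Ccl6 at 150.3 ± 37.2 and 148.2 ± 67.1 CPM (log2 fold change 0.02, edgeR FDR 0.968; SD, n = 4). Ccl24, a ligand of the eosinophil receptor Ccr3, was named after its values were seen. It was at 15.16, 26.9, 25.69 and 18.68 CPM in BAPN 1 to 4 and at 35.44, 31.58, 28.7 and 39.79 CPM in Vehicle 1 to 4. Every BAPN animal was below every Vehicle animal, opposite to Ccl7. Ccl24 had a log2 fold change of -0.65 (SE 0.20, edgeR FDR 0.0517), just short of the threshold, while DESeq2 gave an FDR of 0.0151. In edgeR it was called with DESeq2 size factors (FDR 0.0485), with total counts (0.0407), with thinned libraries (0.0436) and without BAPN 2 (0.0467), and it was at 0.0838 with sex as a covariate, so its call depends on these settings. The 6 ligands below the filter included Ccl20, also named after its values were seen, with 25, 65, 39 and 15 reads in BAPN 1 to 4 and 4, 0, 0 and 2 reads in Vehicle 1 to 4, and Ccl25 and Ccl26, with no reads in any library. Ccl20 did not pass the test in a fit without the filter (edgeR FDR 0.0814).

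**Figure D3:**
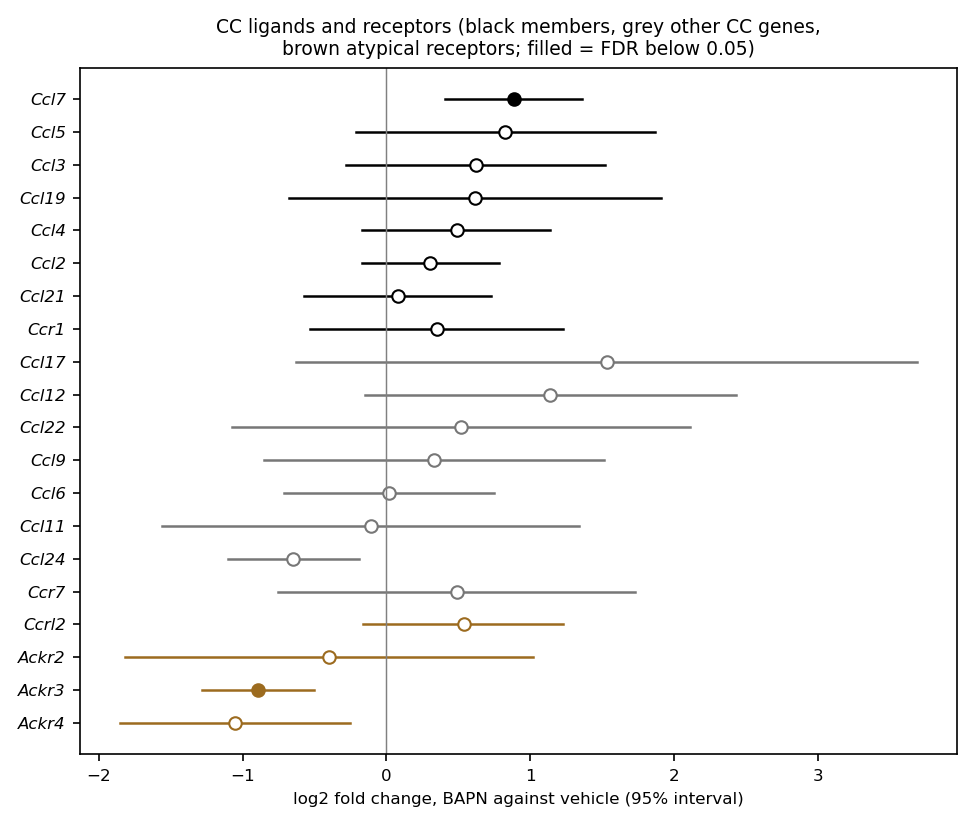
Log2 fold change of BAPN over Vehicle (horizontal axis) with its 95% interval (lines) for the 8 measured CC genes (black), the other tested CC ligands and receptors (grey) and the tested atypical receptors (brown), with filled points where the FDR was below 0.05. Ccl7 (0.89) and Ackr3 (-0.89) are the filled points.

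Of 7 other CC receptors, Ccr7 was tested and 6 were below the filter (Ccr3, Ccr4, Ccr6, Ccr8, Ccr9 and Ccr10). Ccr6, the receptor for Ccl20, was at 3.671, 3.254, 2.422 and 1.252 CPM in BAPN 1 to 4 and at 0.8427, 2.274, 1.389 and 1.672 CPM in Vehicle 1 to 4, overlapping through BAPN 4, and did not pass the test in a fit without the filter (log2 fold change 0.81, edgeR FDR 0.29). Ccr7, the receptor for Ccl19 and Ccl21, was at 5.123, 3.984, 9.318 and 1.691 CPM in BAPN 1 to 4 and at 2.622, 4.3, 3.62 and 3.774 CPM in Vehicle 1 to 4, with the highest and the lowest value both in the BAPN group (log2 fold change 0.49, edgeR FDR 0.457). Without BAPN 3 this was 0.01, without BAPN 4 it was 0.77, with sex as a covariate 0.19, and among females alone 0.83.

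Several atypical chemokine receptors bind chemokines and remove them without G protein signaling. Of 5 listed, 4 were tested, 3 with a log2 fold change below 0, and 1 of them, Ackr3, was called. Ccrl2 was the 1 above 0 (log2 fold change 0.54, edgeR FDR 0.248). Ackr3, a scavenger of Cxcl12, was at 71.33, 56.52, 51.16 and 58.51 CPM in BAPN 1 to 4 and at 149.1, 87.78, 101.1 and 102 CPM in Vehicle 1 to 4. All BAPN animals were below all Vehicle animals, and the log2 fold change was -0.89 (SE 0.17, edgeR FDR 0.0164). It was called in all 8 fits with 1 animal left out and was not called among females alone (edgeR FDR 0.0986). Ackr4, which removes Ccl19 and Ccl21, was at 15.33, 12.03, 12.06 and 20.29 CPM in BAPN 1 to 4 and at 24.11, 16.06, 23.78 and 59.86 CPM in Vehicle 1 to 4. Vehicle 4 was the highest library for Ackr4, as it was for Ccl19, and the groups overlapped through BAPN 4. The log2 fold change was -1.05 (SE 0.36, edgeR FDR 0.0826, with DESeq2 at 0.0273), and it was -0.51 without Vehicle 4 and -1.27 without Vehicle 2, where it was called (edgeR FDR 0.0393).

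Of 20 genes that carry the signal from chemokine receptors, 19 were tested, 14 with a log2 fold change above and 5 below 0, with a median of 0.20. The kinase gene Jak2 was the 1 called by edgeR, while DESeq2 called 4 higher and 1 lower. Jak2 was at 178.9, 190.1, 177.1 and 166.5 CPM in BAPN 1 to 4 and at 106.8, 114.6, 115.8 and 123.4 CPM in Vehicle 1 to 4. The groups were far apart relative to their spread (log2 fold change 0.63, SE 0.10, edgeR FDR 0.00946), and Jak2 was called in all 8 fits with 1 animal left out but not among females alone (edgeR FDR 0.0659). The G protein subunit genes Gnai2 (log2 fold change 0.08, edgeR FDR 0.721) and Gnb1 (-0.06, edgeR FDR 0.718) did not pass the test. The plot of FDR by fit sets Ccl7 beside Ackr3.

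**Figure D4:**
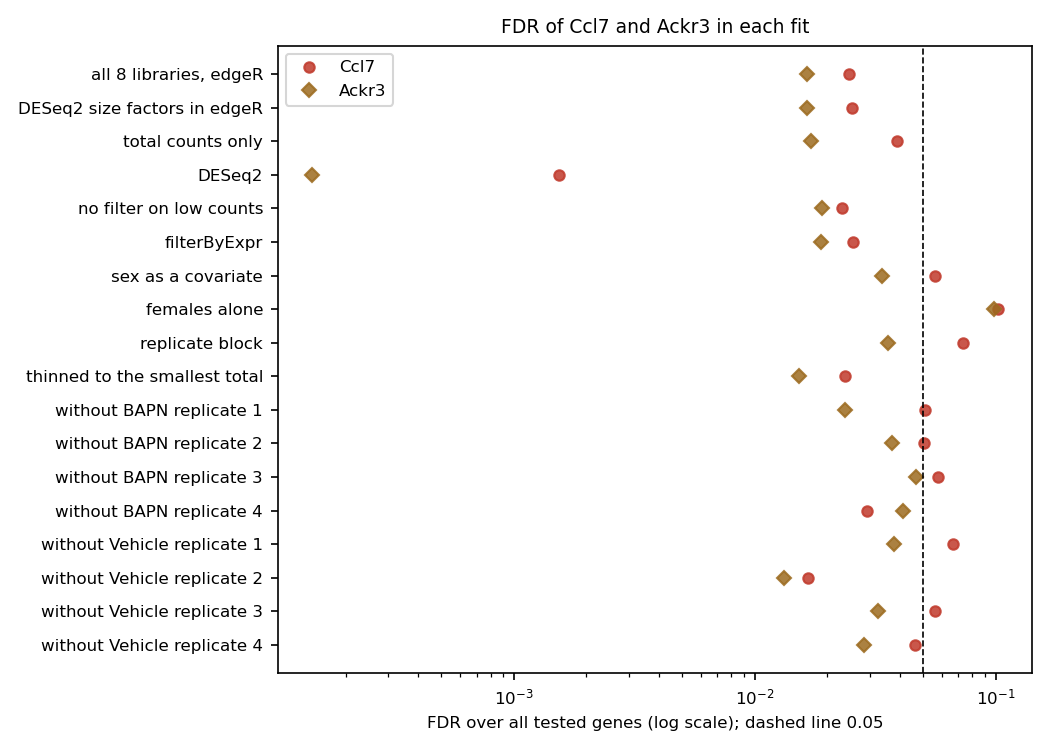
FDR over all tested genes (horizontal log axis, dashed line at 0.05) of Ccl7 and Ackr3 in 18 fits: edgeR on all 8 libraries, 9 other settings and 8 fits with 1 animal left out. Ccl7 lay between 0.00154 and 0.102, and among females alone both genes were right of the line.

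The cells that carry these receptors were represented by marker lists. Of the 14 tested monocyte and macrophage markers 13 had a log2 fold change above 0, and Aif1 (0.80, edgeR FDR 0.0155) and the Fc receptor gene Fcgr3a (1.06, edgeR FDR 0.0362) rose, while DESeq2 called 5 higher, Lyz2 among them (FDR 0.00765). With sex as a covariate Aif1 was called (edgeR FDR 0.0363) and Fcgr3a was not (0.0615), and neither was called among females alone (0.121 and 0.159). Aif1 was not called without Vehicle 1 (FDR 0.0525), nor Fcgr3a without BAPN 1 (0.0766), BAPN 2 (0.0677), BAPN 4 (0.0828), Vehicle 1 (0.0927) or Vehicle 3 (0.0803). Those with the largest mean counts were Lyz2 (log2 fold change 1.28, edgeR FDR 0.0722), the lysosomal marker Cd68 (0.54, edgeR FDR 0.261) and Csf1r, the receptor for a macrophage growth factor (0.17, edgeR FDR 0.526).

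Of 11 tested T cell markers 10 had a log2 fold change above 0, with a median of 0.85. Cd8a (1.33, edgeR FDR 0.0281) and Cd2 (1.39, edgeR FDR 0.0138) rose, and DESeq2 called 5. With sex as a covariate Cd2 was called (edgeR FDR 0.0271) and Cd8a was not (0.0649), and neither was called among females alone. Cd2 was called in all 8 fits with 1 animal left out, and Cd8a was not called without BAPN 1 (FDR 0.0566), BAPN 2 (0.051), BAPN 3 (0.0719) or Vehicle 4 (0.0594). The kinase gene Lck did not pass the test (0.85, edgeR FDR 0.0964). The marker below 0 was Cd4 (-0.07, edgeR FDR 0.811), at 334 ± 54.2 CPM in BAPN and 350.4 ± 77.3 CPM in Vehicle (SD, n = 4), which makes up most of the summed level (405.5 to 492.5 and 320 to 538.6 CPM, exact permutation test, p = 0.343). The sum therefore mostly follows Cd4 and says little of the other 10 markers.

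Of 7 tested dendritic cell markers 4 had a log2 fold change above 0, with a median of 0.15 and a summed level of 334.4 to 485.6 CPM in BAPN and 213.7 to 468.8 CPM in Vehicle (exact permutation test, p = 0.543). Zbtb46 fell by 0.80 on the log2 scale (edgeR FDR 0.0161, and 0.0525 without Vehicle 1), while Itgax (0.33, edgeR FDR 0.613), Flt3 (0.65, edgeR FDR 0.173) and Fscn1 (-0.72, edgeR FDR 0.111) did not pass the test. The 2 tested neutrophil markers, Csf3r and S100a9, were not called (edgeR FDR 0.637 and 0.791, and not by DESeq2).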

How the data were processed

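Bulk RNA sequencing was performed on 8 AVF outflow veins at day 21, 4 per group, with groups and sex taken from the labels. The authors depleted ribosomal RNA, made stranded libraries and deposited whole-number read counts per gene without normalization. The submitters' processing notes name bcl2fastq 2.17, Trim Galore and STAR. The counter, the annotation and the genome build are not given in the sources used here.

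As in the study, a base mean of 100 or more (DESeq2 1.42.0 size factors) was required, which left 11682 genes with 99.5% to 99.66% of each library's counts. BAPN was compared with Vehicle by edgeR 4.0.16 (TMM, quasi-likelihood F test, no covariate) in R 4.3.3, with Benjamini-Hochberg adjustment. The study used a DESeq plug-in, so DESeq2 was an alternative. Standard errors and 95% intervals came from limma 3.58.1 (voom). A prior count of 2 was added for log2 CPM. All 70 arrangements entered each exact permutation test, two-sided. The steps were tested on simulated data. Animals of a group differed by more than counting noise (chi-square per degree of freedom 68.58 to 320.8), and each counted as 1 replicate.

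The members and gene lists were chosen with earlier results of these data known. Named were the members, other CC, atypical receptor and signaling genes with an FDR below 0.05 or with the 2 largest mean counts of their list, tested marker genes among the 3 largest mean counts of their list or with an FDR below 0.05, and the 2 genes with the most similar profile to each member. Alternatives were other scalings, DESeq2, other filters, sex as a covariate, equal library totals, females alone, a replicate block and each animal left out. The list without Lyz2 and the within-library ratios were added after seeing the data. RefSeq tables (GRCr8) served only for promoter sequences. Some results of the gene family are not reported here.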

Additional observations from a re-analysis of the deposited data

Results flagged for a closer look

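Single animals stood apart from the other 3 of their group in 3 of the CC genes, by Dixon's ratio of the gap to the range at its 95% critical value. Ccl5 was at 29.66 CPM in BAPN 1 (ratio 0.846). Ccl21 was at 526.5 CPM in Vehicle 1 (ratio 0.859) and at 271.2 CPM in BAPN 4 (ratio 0.89). Ccr1 was at 80.8 CPM in BAPN 4 (ratio 0.897). Chance alone marks about 1 in 20 such groups, and 16 were examined. Ccl7, the called gene, had no such animal.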

How the results depend on the processing

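The number of CC members called was 1, and it was 0 with sex as a covariate, among females alone and with the replicate block, and 0 to 1 with 1 animal left out. The log2 fold change of Ccl21 was -0.02 with sex as a covariate, -0.19 among females alone and -0.07 to 0.48 with 1 animal left out. That of Ccr1 was -0.35 among females alone and -0.01 to 0.64 with 1 animal left out. Ccl9 was at -0.24 among females alone, and Ccl6 at -0.06 when scaled on total counts, -0.24 among females alone and -0.18 to 0.32 with 1 animal left out. The cause was not tested, beyond the fewer animals of the fits on females alone and with 1 animal left out. Of 136 values of the members under alternatives, 121 kept their direction and side of the threshold, 8 of Ccl7 lost the call and 7 changed sign. The other 23 genes counted were Irf1, the called marker genes, Ccl6, Ccl9, Ccr7, Ackr3, Ackr4, Gnai2, Gnb1 and Jak2, without Ccl24. Of their 391 values, 300 kept direction and side, 83 lost a call, 2 gained one and 6 changed sign. With the replicate block Ccl7 was at 0.88 (FDR 0.0732), Ccl19 at 1.14, and Aif1, Fcgr3a, Cd8a, Cd2, Cd79b, Des, Smtn, Vwf, Plin1 and Irf1 lost their calls (FDR 0.0544 to 0.0886). What the replicate numbers stand for is not given in the labels. Same-numbered animals had correlations of deviations of 0.094, -0.265, 0.269 and -0.14, and not every sample correlated best with its own number. With so few animals, these values cannot decide whether the numbers mark pairs. Over all tested genes the calls were 1957, against 3202 by DESeq2, 930 with sex as a covariate, 89 among females alone, 556 with the replicate block and 397 (without Vehicle 1) to 2215 (without Vehicle 2) with 1 animal left out. Ccl19 was at 0.69 (FDR 0.464) with all libraries thinned to the smallest total.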

Other observations

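Other lists of cell type markers were described in the same libraries. Of 6 smooth muscle markers 4 fell, Myh11 (log2 fold change -1.60, edgeR FDR 0.0148), Des (-0.68, edgeR FDR 0.029), Cnn1 (-1.60, edgeR FDR 0.0295) and Smtn (-0.95, edgeR FDR 0.0254), which encode contractile and cytoskeletal proteins, while Tagln (-0.64, edgeR FDR 0.217) and Acta2 (-0.75, edgeR FDR 0.26) did not pass the test. With sex as a covariate Myh11 was called (edgeR FDR 0.0364), and Des (0.0654), Cnn1 (0.0507) and Smtn (0.0663) were not. Of 5 tested blood endothelial markers 2 fell, Tek, the angiopoietin receptor (-1.24, edgeR FDR 0.0089), and Vwf (-1.99, edgeR FDR 0.0389), while Eng (-0.49, edgeR FDR 0.17) and Cdh5 (-0.97, edgeR FDR 0.0736) did not pass the test. All 5 had a log2 fold change below 0, Kdr among them (-0.54, edgeR FDR 0.197), and DESeq2 called 3, Cdh5 included (FDR 0.0194). Their summed level was 351.8 to 674 CPM in BAPN and 699.6 to 1582 CPM in Vehicle (exact permutation test, p = 0.0286). Vwf was at 767.7 CPM in Vehicle 1 and at 106.2 to 269.5 CPM in Vehicle 2 to 4. Leaving out Vehicle 1, its log2 fold change was -1.13 (edgeR FDR 0.067). None of 6 fibroblast markers was called by edgeR (3 at an unadjusted p under 0.05), with DESeq2 calling 3 lower, Col1a1, Col3a1 and Pdgfra. Dcn was at -0.30 (edgeR FDR 0.312). Of 5 tested adipocyte markers Plin1 fell (-2.13, edgeR FDR 0.0443), while Fabp4 (0.70, edgeR FDR 0.269), Adipoq (-1.61, edgeR FDR 0.0647) and Pparg (-0.10, edgeR FDR 0.798) did not pass the test. The 1 tested B cell marker, Cd79b, rose by 2.55 on the log2 scale (edgeR FDR 0.0458), with the groups overlapping, and adjusting for sex removed its call (2.21, edgeR FDR 0.186). The summed B cell markers were 20.97, 28.36 and 38.56 CPM in the BAPN females, 3.59 CPM in BAPN 4 and 3.015 to 12.21 CPM in Vehicle. With 1 animal left out, Myh11 and Tek were called in all 8 fits, while Smtn was not called in 4 (FDR 0.0507 to 0.0699), Des in 5 (0.0553 to 0.0681), Cnn1 in 5 (0.0541 to 0.0782), Vwf in 5 (0.0639 to 0.0966), Cd79b in 6 (0.0748 to 0.112) and Plin1 in 7 (0.0634 to 0.118). In the 9 other settings Myh11 (FDR up to 0.111) and Tek (up to 0.0783) were each called in 8. Smtn was called in 6 of these 9, at -0.99 to -0.50 (FDR up to 0.204).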
